A study of Mus musculus with 3 samples.

Results

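The retinoid visual cycle was examined through 10 genes, each tied to a cell type that carries a step of the cycle: Rdh8, Rdh12 and Abca4 for photoreceptors, Rlbp1, Rgr and Rdh10 for steps shared by Müller glia and the pigment epithelium, and Rpe65, Lrat, Rdh5 and Stra6 for the pigment epithelium. Their probes were found by matching the RefSeq accession printed for each probe to the gene. This gave 12 probes for the 10 genes, of 21366 named genes with a value on all 3 arrays. RNA came from mouse retina at postnatal day 12, with 1 array labelled Otx2 KI, 1 labelled Crx KO and 1 labelled wild-type. KI usually stands for knock-in and KO for knockout; the labels give no allele, exon, locus, promoter or strain, and do not say how many animals or retinas went into each RNA preparation. Retinas were dissected with forceps and the labels give no treatment, so genotype is the labelled difference between the groups. With 1 array per genotype there is no spread between animals, no test was possible, and differences are described by size, with 2-fold or more (1 on the log2 scale) taken as a call.

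Light changes the retinal bound to opsin from its 11-cis to its all-trans form, and the visual cycle turns it back. In photoreceptors the transporter ABCA4 moves retinal out of the disc lumen, and the dehydrogenases RDH8 and RDH12 reduce it to retinol. In the pigment epithelium LRAT makes retinyl esters, RPE65 turns the esters into 11-cis retinol, and RDH5 oxidises that to 11-cis retinal, while STRA6 takes up retinol from the blood side. The binding protein CRALBP, encoded by Rlbp1, carries 11-cis retinoids in the pigment epithelium and in Müller glia, where the opsin-like protein RGR and the dehydrogenase RDH10 are also found.

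Signals are given on the wild-type array's scale, as background-subtracted Cy3 intensity after each array was divided by its own 75th percentile, and are called scaled signal. Of the 59305 non-control spots per array 63.5% to 67.1% were well above background and 0 were saturated. The probe for Crx read 1062 in Otx2 KI, 7177 in Crx KO and 9790 in wild-type, and the probe for Otx2 read 63860, 62981 and 40886 on the same arrays. Where these probes lie relative to the changed alleles is not in the labels, so they do not check the genotypes, which are named here as labelled. The tissue was checked against cell markers: 15 of 15 photoreceptor, 15 of 15 Müller glia and 6 of 6 bipolar cell markers were well above background on all 3 arrays. Of 7 pigment epithelium markers 6 were too. Best1, a chloride channel gene of that tissue read from 1 probe, was not well above background on any array. In RNA of whole retina, fewer cells of a type and less RNA per cell cannot be told apart.

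All 10 visual cycle genes were well above background on all 3 arrays, and none of their spots was marked as an outlier. In the array labelled Otx2 KI, 4 of 10 were lower than in wild-type by 2-fold or more, 0 were higher and 6 were within 2-fold; 2.53% of all 15809 genes measured on both arrays were lower and 1.35% higher by that much. In the array labelled Crx KO, 6 of 10 were lower, 0 higher and 4 within 2-fold, where 3.43% of 16048 genes were lower and 1.95% higher. The median log2 difference of the 10 genes was -0.77 in Otx2 KI and -1.09 in Crx KO, beside 0.03 and -0.01 over all measured genes. Lower on both mutant arrays were Rdh12, Abca4 and Lrat (3 genes), while Rdh8 was called in Otx2 KI and Rgr, Rdh5 and Stra6 in Crx KO. At 1.5-fold, 8 of 10 were below wild-type in Otx2 KI and 0 above it (6.35% and 3.66% of all genes), and 8 were below and 0 above in Crx KO (8.24% and 5.02%). The wild-type array is shared by these comparisons.

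**Figure D1:**
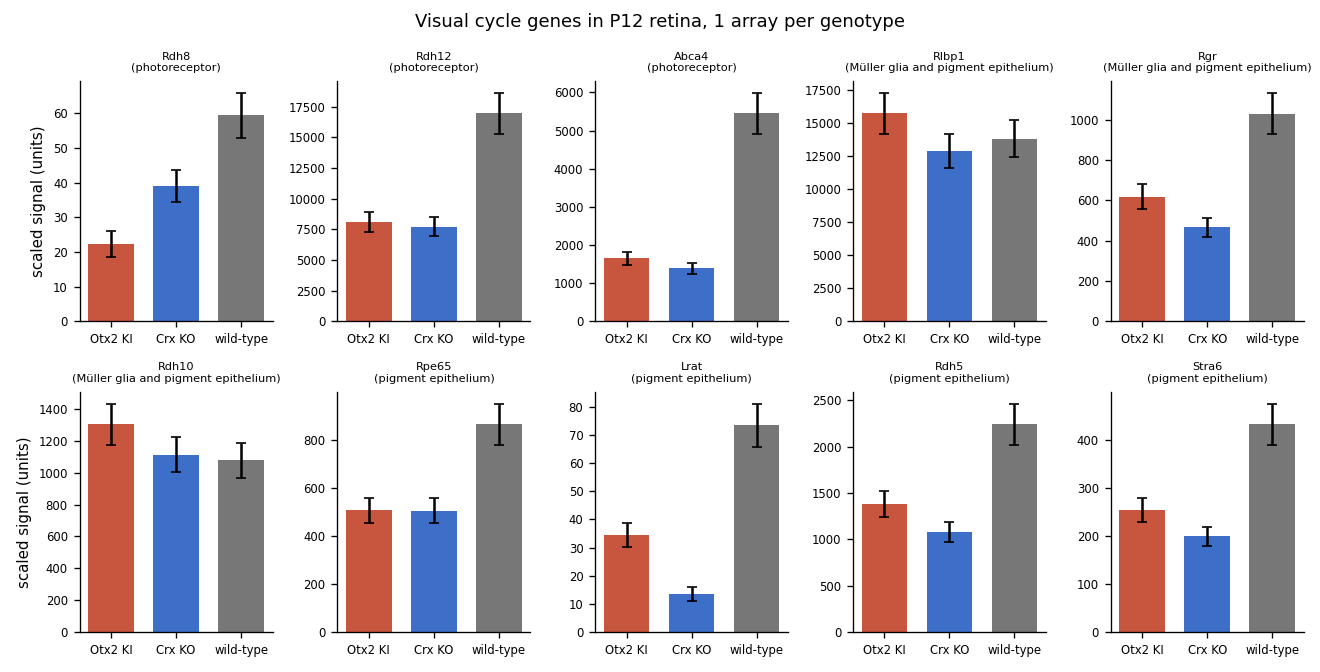
Scaled signal (units of Cy3 intensity on the wild-type scale, linear axes from 0) of the 10 visual cycle genes on the arrays labelled Otx2 KI, Crx KO and wild-type. Bars are 1 array each, error bars are the scanner software's error, and each gene has its own axis because levels of different probes cannot be compared; wild-type is the highest bar for 8 genes and not for Rlbp1 and Rdh10.

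Among the steps, the photoreceptor genes of the cycle were below wild-type on both mutant arrays, by unequal amounts. Abca4 (probe A_55_P2146034) had a scaled signal of 1650 in Otx2 KI and 1390 in Crx KO, against 5447 in wild-type. It was thus lower by 3.30-fold in Otx2 KI (log2 -1.72 ± 0.20, the error from the scanner software's error model, which covers the measurement of these preparations and not the spread between animals) and by 3.92-fold in Crx KO (log2 -1.97 ± 0.20). A second Abca4 probe read 790.4 in Otx2 KI and 702.8 in Crx KO, against 2799 in wild-type, with log2 differences of -1.82 and -1.99. The probes of this gene therefore differed from each other by less than the scanner error. Among all measured genes 0.930% lay lower than Abca4 in Otx2 KI and 0.816% in Crx KO.

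Rdh12 (probe A_55_P2102135) read 8082 in Otx2 KI and 7727 in Crx KO, against 16954 in wild-type. These are 2.10-fold (log2 -1.07 ± 0.20) and 2.19-fold (log2 -1.13 ± 0.20) below wild-type, so the gene lies just past the 2-fold line and by less than its scanner error. Rdh8 (probe A_55_P1970570) was dim, at 22.3 in Otx2 KI and 39.0 in Crx KO, against 59.5 in wild-type, where the lowest signal well above background was 12.4, 9.94 and 10.2 on these arrays. Its log2 difference was -1.41 ± 0.29 in Otx2 KI (2.66-fold lower) and -0.61 ± 0.23 in Crx KO (1.52-fold lower). With normexp, another background correction that shrinks differences of dim probes, these became -0.43 and -0.21, and Rdh8 was within 2-fold on both arrays. The median of the 3 photoreceptor genes was -1.41 in Otx2 KI and -1.13 in Crx KO.

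Photoreceptor markers from outside the cycle were below wild-type too, over a far wider range. In Otx2 KI 11 of 15 markers were past 2-fold below wild-type and, for Crx KO, 12 were. Of all measured genes 2.53% and 3.43% were that far below. The medians of the markers were -1.53 and -1.26. Their lowest values were -6.95 and -5.68, both from Gnat1, the rod transducin subunit. The highest values were -0.20, from Nr2e3, a rod transcription factor gene, in Otx2 KI, and -0.31, from Gnat2, the cone transducin subunit gene, in Crx KO, so the log2 differences of Abca4, Rdh12 and Rdh8 lay inside the range of the list on both arrays. Nr2e3 and Gnat2 were named after their values were seen. The summed scaled signal of this list in Otx2 KI was 37.9% of that in wild-type, and in Crx KO 40.3%; such a sum is weighted to the brightest probes. Opn1mw, the medium-wavelength cone opsin, read 71.7 in Otx2 KI and 53.5 in Crx KO, against 7242 in wild-type.

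**Figure D2:**
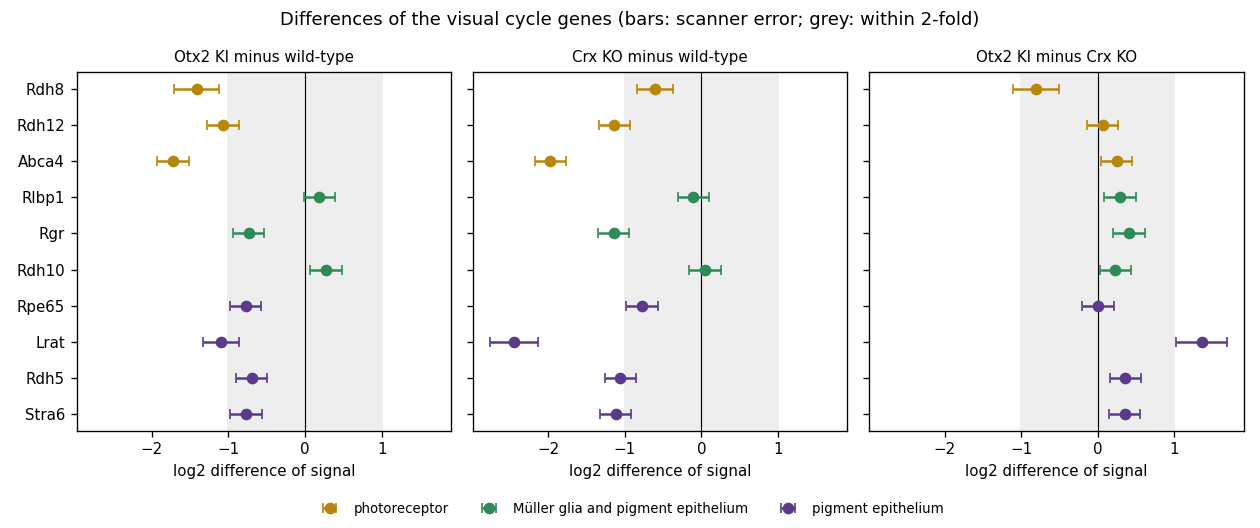
Log2 difference of scaled signal for each visual cycle gene in Otx2 KI minus wild-type, Crx KO minus wild-type and Otx2 KI minus Crx KO, coloured by step, with the scanner error as bars and the range within 2-fold in grey. The photoreceptor genes lie between -1.97 and -0.61 against wild-type, Rlbp1 and Rdh10 lie near 0, and Lrat is the gene past 2-fold between the mutant arrays.

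Upstream sequence is shown for 5 genes, since CRX and OTX2 are homeodomain proteins that favour the letters TAATCC. Genes with signals below wild-type on both mutant arrays are set beside Rlbp1, which was near wild-type. Rdh10, also near wild-type, had no promoter entry. The printed genes include every gene of the cycle with these letters, so they do not show how often the letters go with a lower signal. The 250 bases before the annotated start were taken from RefSeq (GRCm38.p6, while the array design refers to mm9), and capitals mark TAATCC or its reverse complement GGATTA. Of the 8 genes below wild-type on both mutant arrays, 3 (Abca4, Rgr and Rpe65) held these letters and 5 (Rdh8, Rdh12, Lrat, Rdh5 and Stra6) held none, and of these 5 only Rdh12 is printed. The window of Abca4 is chr3:122044210-122044459 (plus strand), of Rgr chr14:37049015-37049264 (minus), of Rpe65 chr3:159598931-159599180 (plus), of Rdh12 chr12:79208663-79208912 (plus) and of Rlbp1 chr7:79387028-79387277 (minus).
Abca4: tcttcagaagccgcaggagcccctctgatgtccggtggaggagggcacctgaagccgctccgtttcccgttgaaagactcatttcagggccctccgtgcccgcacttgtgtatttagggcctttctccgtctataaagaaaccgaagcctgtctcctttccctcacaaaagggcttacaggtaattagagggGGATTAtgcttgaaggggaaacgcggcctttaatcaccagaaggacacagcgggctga
Rgr: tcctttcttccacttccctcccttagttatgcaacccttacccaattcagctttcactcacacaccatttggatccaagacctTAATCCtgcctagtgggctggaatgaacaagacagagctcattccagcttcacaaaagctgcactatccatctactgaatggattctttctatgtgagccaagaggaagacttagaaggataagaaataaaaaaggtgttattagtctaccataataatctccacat
Rpe65: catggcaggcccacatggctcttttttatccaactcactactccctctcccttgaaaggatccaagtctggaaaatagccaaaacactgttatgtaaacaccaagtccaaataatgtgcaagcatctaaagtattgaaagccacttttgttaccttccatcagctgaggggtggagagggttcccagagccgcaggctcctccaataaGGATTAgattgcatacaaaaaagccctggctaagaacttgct
Rdh12: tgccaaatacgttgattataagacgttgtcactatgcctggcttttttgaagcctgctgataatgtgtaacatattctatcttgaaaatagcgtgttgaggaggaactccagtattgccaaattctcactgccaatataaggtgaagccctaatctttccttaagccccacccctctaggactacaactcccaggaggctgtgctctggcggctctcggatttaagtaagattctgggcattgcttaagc
Rlbp1: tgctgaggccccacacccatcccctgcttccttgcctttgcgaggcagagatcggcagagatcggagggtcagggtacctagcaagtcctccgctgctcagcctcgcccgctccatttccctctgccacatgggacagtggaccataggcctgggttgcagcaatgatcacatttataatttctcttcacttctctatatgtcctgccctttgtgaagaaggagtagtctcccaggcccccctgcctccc
The letters stood 58 to 53 bases before the start in Abca4, 167 to 162 in Rgr and 42 to 37 in Rpe65. Of 9 genes of the cycle with a promoter entry these 3 held TAATCC on either strand, and 6.25% of all 32851 promoter windows of that length did. The first count is of genes and the share is of windows: the 9 genes had 12 windows, with 4 for Stra6. CACGTG, an E-box that the pigment cell factor MITF can bind and that reads the same on both strands, was in 0 of the 9 and in 6.02% of all windows. Exact matches alone were counted, and shorter forms such as TAATC, which the printed Rdh12 window holds, were not. A match describes the letters only, and these arrays hold no measure of binding.

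Of the genes shared by Müller glia and the pigment epithelium, Rlbp1 and Rdh10 stayed close to wild-type and Rgr was lower. Rlbp1 (probe A_51_P211793) read 15737 in Otx2 KI and 12875 in Crx KO, against 13835 in wild-type, with log2 differences of 0.19 ± 0.20 and -0.10 ± 0.20. Rdh10 (probe A_52_P59318) read 1304 in Otx2 KI and 1114 in Crx KO, against 1077 in wild-type, with log2 differences of 0.28 ± 0.20 and 0.05 ± 0.20. Both genes lay within 1.96 scanner errors of 0 in both comparisons with wild-type, which holds for no other gene of the 10.

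Rgr differed from them. Its probe A_51_P139985 read 618.8 in Otx2 KI and 466.9 in Crx KO, against 1031 in wild-type, which is 1.67-fold (log2 -0.74 ± 0.20) and 2.21-fold lower (log2 -1.14 ± 0.20). Its other probe gave 168.5 in Otx2 KI and 113.3 in Crx KO, against 284.8 in wild-type, or log2 -0.76 and -1.33, so both probes were past 2-fold in Crx KO and neither was in Otx2 KI. Müller glia markers were close to wild-type beside these values: 0 of 15 were past 2-fold on either mutant array, with medians of 0.12 in Otx2 KI and 0.28 in Crx KO and 13 of 15 above 0 in each. Few of all measured genes were past 2-fold either (2.53% lower and 1.35% higher in Otx2 KI, 3.43% and 1.95% in Crx KO). The medians over all genes were 0.03 and -0.01. Car2, a carbonic anhydrase gene, had the largest difference of these markers in Otx2 KI, at log2 0.63, and was at 0.80 in Crx KO. Kcnj10, a potassium channel gene of these cells, was at 0.10 in Otx2 KI and had the largest difference in Crx KO, at 0.87.

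The pigment epithelium genes were below wild-type on both mutant arrays, and Rdh5, Stra6 and Lrat read lower in Crx KO than in Otx2 KI. In Otx2 KI minus Crx KO, Rdh5 (log2 0.36 ± 0.20) and Stra6 (0.35 ± 0.21) lay within 1.96 scanner errors of 0. Lrat was at 1.35 ± 0.33 there, and at 0.29 with normexp. Rpe65, the isomerase (probe A_55_P2043237), read 506.5 in Otx2 KI and 505.8 in Crx KO, against 864.5 in wild-type, with the same log2 difference of -0.77 ± 0.20 on both arrays. Rdh5 (probe A_66_P138289) read 1383 in Otx2 KI and 1077 in Crx KO, against 2241 in wild-type. Its log2 difference of -0.70 ± 0.20 in Otx2 KI was within 2-fold and that of -1.06 ± 0.20 in Crx KO just past it.

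Stra6 (probe A_55_P1973451) read 254.2 in Otx2 KI and 199.4 in Crx KO, against 432.6 in wild-type, or log2 -0.77 ± 0.20 and -1.12 ± 0.20. With normexp Rdh5 was at -0.97 and Stra6 at -0.92 in Crx KO, which ends both calls. Lrat, the ester-forming enzyme, was dim and had the lowest value of the 10 genes in Crx KO. Its probe A_52_P669005 read 34.5 in Otx2 KI and 13.5 in Crx KO, against 73.5 in wild-type, which is 2.13-fold (log2 -1.09 ± 0.24) and 5.45-fold lower (log2 -2.45 ± 0.31). With normexp it was within 2-fold on both arrays (log2 -0.53 and -0.82). The median of the 4 pigment epithelium genes was -0.77 in Otx2 KI and -1.09 in Crx KO; with normexp it was -0.63 and -0.87, and 0 of the 4 were past 2-fold.

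Pigment cell markers other than Mitf were also below wild-type on both mutant arrays, by unequal amounts. In Otx2 KI, Tyr (log2 -0.28 ± 0.21) and Slc45a2 (-0.11 ± 0.40) lay within 1.96 scanner errors of 0. Slc45a2 was not well above background in Crx KO. Both were named after their values were seen. Of 8 melanin pathway markers 0 were past 2-fold in Otx2 KI, where all 8 were below wild-type with a median of -0.84. In Crx KO 5 of 7 measured were past 2-fold below it, at a median of -1.67 (4 with normexp, median -1.06). The shares of all measured genes past 2-fold below wild-type were 2.53% in Otx2 KI and 3.43% in Crx KO. The summed scaled signal of the melanin markers was 7998 in Otx2 KI and 4878 in Crx KO, against 14558 in wild-type. Of this sum 10662 in wild-type came from 1 gene, Dct, a melanin enzyme gene named after its values were seen. Pmel, a melanosome matrix protein gene, was at log2 -0.97 in Otx2 KI and -1.97 in Crx KO, Tyrp1, a melanin enzyme gene, at -0.92 and -1.76, and Oca2, a melanosome transporter gene, at -0.81 and -1.88 (-0.92 in Crx KO with normexp). Mitf, a regulator of pigment cells, was at -0.09 and 0.04.

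In Otx2 KI 2 of the 6 measured pigment epithelium markers were past 2-fold below wild-type and, for Crx KO, 3 were, with medians of -0.45 and -0.78 (with normexp 1 and 2, with medians of -0.15 and -0.27). The lower ones included Krt18, a keratin gene, at -1.84 in Otx2 KI and -1.64 in Crx KO and Slc16a8, a lactate transporter gene of that tissue, at -1.08 (-0.84 with normexp) and -1.40. Krt8, another keratin gene, was at -0.93 and -1.39 (-0.35 and -0.44 with normexp). The other 3 lay near wild-type: Rrh, an opsin gene of that tissue, was at 0.03 in Otx2 KI and 0.31 in Crx KO, Ermn at 0.19 and 0.06, and Serpinf1, which encodes the secreted factor PEDF, at 0.03 and -0.18. These 3 were named after their values were seen. The summed signal of this list was 20912 in Otx2 KI and 20210 in Crx KO, against 24144 in wild-type, and most of it was the signal of Ermn (15823, 14442 and 13850 on these arrays). Best1 was not well above background on any array. Because the pigment epithelium is a tissue beside the retina, how much of it came along with the dissected retina is not in the labels, and the part of carried-over pigment epithelium in the values of Rpe65, Lrat, Rdh5, Stra6 and Rgr was not tested. For the other cell types that a retina preparation can hold, 0 of 6 measured vessel and blood markers were past 2-fold on either mutant array (medians of -0.27 in Otx2 KI and -0.46 in Crx KO), and 0 of 6 bipolar cell markers were (medians of -0.18 and -0.06). Of all measured genes 2.53% were lower and 1.35% higher by that much in Otx2 KI, and 3.43% and 1.95% in Crx KO.

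**Figure D3:**
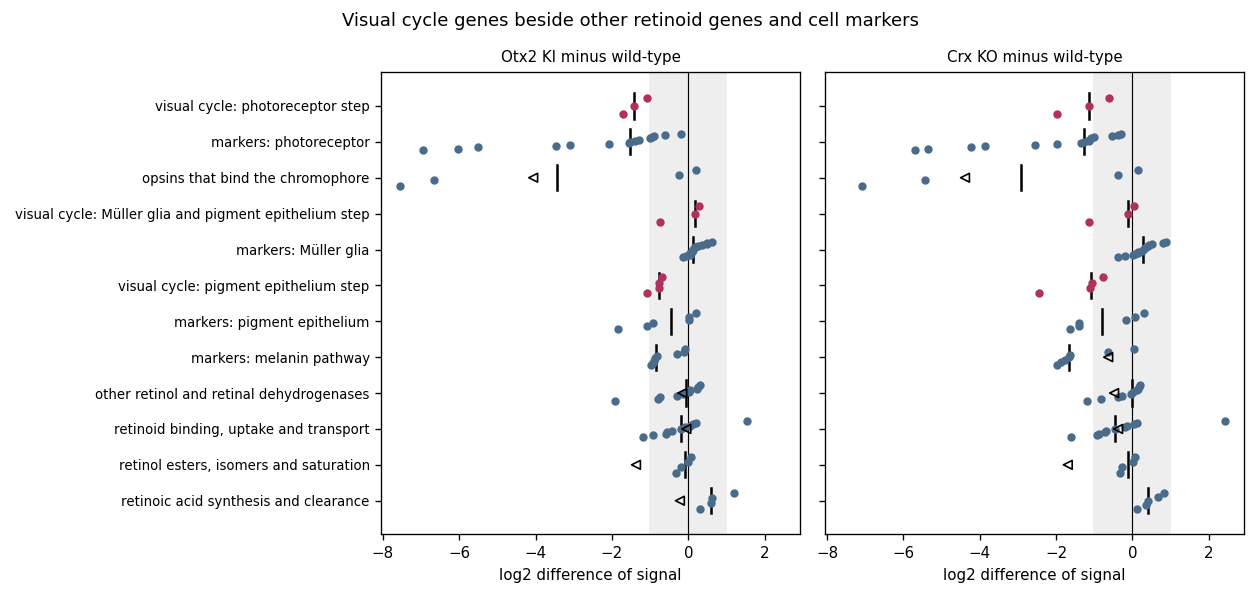
Log2 difference in Otx2 KI minus wild-type and in Crx KO minus wild-type for the visual cycle genes by step (red), cell markers and other retinoid genes (blue). Points are genes measured on both arrays, black lines are list medians over them, open triangles are upper bounds for genes dim on the mutant array, and grey is within 2-fold; the pigment epithelium step and the melanin markers have medians of -0.77 and -0.84 in Otx2 KI and -1.09 and -1.67 in Crx KO.

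Between the 2 mutant arrays most of these genes differed by less than 2-fold. In Otx2 KI 1 of the 10 genes lay past 2-fold above Crx KO and 0 below it, where 0.677% of 15805 measured genes were above and 0.645% below. At 1.5-fold 1 gene lay above and 1 below, where 2.44% and 2.31% of all genes did. The gene above Crx KO was Lrat, 2.56-fold higher in Otx2 KI (log2 1.35 ± 0.33, and 0.29 with normexp). The gene below it was Rdh8, its Otx2 KI signal being 1.75-fold below that of Crx KO (log2 -0.81 ± 0.30, and -0.22 with normexp). For 7 of the 10 genes the difference between the mutant arrays was within 1.96 scanner errors of 0, and Rpe65 differed by 0.00 ± 0.20. At any size 9 of the 10 genes had the higher signal in Otx2 KI, and the median difference of the 10 was 0.27, beside 0.04 over all genes. Of all measured genes 40.8% lay below Rpe65, the lowest of these 9. Rpe65 and Rdh12 (log2 0.06) were near 0, and with quantile normalization both fell just below it (-0.008 and -0.001). The melanin markers had a median of 0.77 in this comparison (0.43 with normexp), and the photoreceptor markers one of -0.22.

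Other retinoid genes that surround the cycle were mostly within 2-fold of wild-type. Of 40 such genes 29 were measured in Otx2 KI and wild-type, with a median of 0.00. By 2-fold or more 2 of these were below and 2 above, beside 2.53% and 1.35% of all measured genes. In Crx KO and wild-type 30 were measured, with 2 lower, 1 higher and a median of 0.00. The shares of all measured genes were 3.43% lower and 1.95% higher there. Among 10 measured dehydrogenases outside the 10 genes of the cycle, Dhrs3 was the one past 2-fold (with no filter on dim probes, 2 of 16 were). Dhrs3, a retinal reductase also called retSDR1, read 5784 in Otx2 KI and 9595 in Crx KO, against 21743 in wild-type, which is 3.76-fold and 2.27-fold lower. Rdh11, a further retinal reductase, was at log2 -0.75 and -0.81, and Rdh13 and Rdh14 lay between -0.13 and 0.27 on both arrays.

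Among 11 measured genes for retinoid binding, uptake and transport, 1 was lower and 1 higher by 2-fold or more on each mutant array (2 lower with the mean of a gene's probes). Over all measured genes 2.53% were lower and 1.35% higher in Otx2 KI, and 3.43% and 1.95% in Crx KO. Ttr, which encodes the carrier of retinol-binding protein and is made by the pigment epithelium, read 3269 in Otx2 KI and 2451 in Crx KO, against 7486 in wild-type (2.29-fold and 3.05-fold lower). Rbp4, the serum retinol-binding protein gene, went the opposite way, at 337.3 in Otx2 KI and 623.4 in Crx KO, against 116.3 in wild-type (2.90-fold and 5.36-fold higher). Rbp3 encodes IRBP, which photoreceptors secrete to shuttle retinoids to and from the pigment epithelium. It read 45620 in Otx2 KI and 49340 in Crx KO, against 68018 in wild-type, with log2 differences of -0.58 and -0.46 that were within 2-fold. Rbp3, like Rdh11, Rdh13 and Rdh14, was named after its values were seen.

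Genes for ester, isomer and saturation steps outside the classical cycle were within 2-fold where measured (4 of 4 on each mutant array). Awat2, an acyltransferase proposed for an alternative cone cycle, was well above background in wild-type alone, at a scaled signal of 32.1. Set against the lowest well-measured signal of each mutant array, it was at least 2.58-fold lower in Otx2 KI and 3.23-fold lower in Crx KO. These limits did not hold with normexp, where the log2 differences were -0.32 and -0.42. Of 6 genes that make and clear retinoic acid, 4 were measured in Otx2 KI and 5 in Crx KO, with medians of 0.60 and 0.40. Aldh1a2, a retinal dehydrogenase gene that makes retinoic acid, did not reach the level of well above background in Otx2 KI, at a signal of 7.93, against 14.5 in wild-type. In Crx KO, Aldh1a1, Aldh1a2 and Aldh1a3, at 0.12 ± 0.20, 0.35 ± 0.35 and 0.40 ± 0.21, lay within 1.96 scanner errors of 0. In Otx2 KI, Aldh1a3 (0.32 ± 0.21) lay within that range and Aldh1a1 (0.61 ± 0.20) lay above it. Cyp26a1 of the same list lay above it on both arrays, at 0.59 ± 0.21 in Otx2 KI and 0.84 ± 0.21 in Crx KO. The Aldh1a genes and Cyp26a1 were named after their values were seen. Cyp26b1, an enzyme that degrades retinoic acid, read 582.8 in Otx2 KI and 401.4 in Crx KO, against 251.9 in wild-type, and was the one past 2-fold, in Otx2 KI (2.31-fold higher, log2 1.21 ± 0.20).

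The genes whose pair of differences from wild-type lay closest to each called gene of the cycle were found among 14837 others well above background on all 3 arrays, by Euclidean distance in log2 units over the 2 comparisons. Nearest to Rdh12 were Cep250, Rab37 and Rpgrip1, at distances of 0.02 to 0.03, and 32 genes lay within 0.1. Nearest to Abca4 were Rapgef5, Rnf183 and Lrrc46, and these were the 3 genes within 0.1. Rgr and Stra6 were each among the 3 nearest of the other, 0.04 apart, and Dbh was the first of both. Prr7, Slc5a5 and Morn1 were nearest to Rdh5.

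Lrat and Rdh8 had no gene within 0.1; their nearest were Gpnmb, at 0.15, and Iqgap2, at 0.13. Gpnmb, a melanosome glycoprotein gene, was at log2 -1.12 in Otx2 KI and -2.59 in Crx KO. These distances are smaller than the scanner error of a difference, and with 1 array per genotype a likeness over 2 values describes these arrays only.

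**Figure D4:**
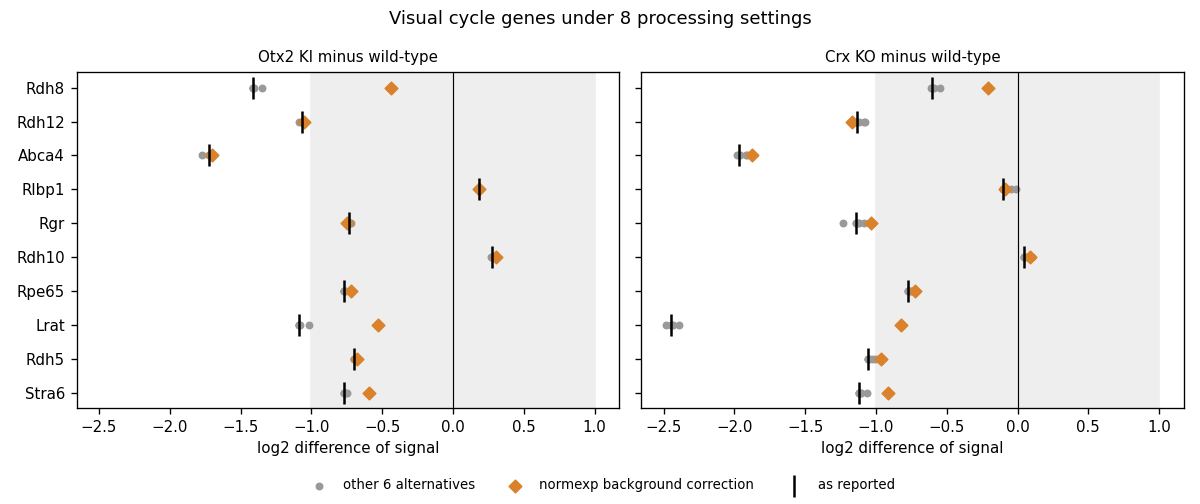
Log2 difference of each visual cycle gene in Otx2 KI minus wild-type and in Crx KO minus wild-type under 8 processing settings: as reported (black line), with normexp background correction (orange) and under the other 6 alternatives (grey). The dim probes of Rdh8 and Lrat move toward 0 with normexp, to -0.43 and -0.53 in Otx2 KI, while Rdh12, Abca4, Rlbp1 and Rdh10 stay close to their reported values.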

How the data were processed

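Cy3-labelled total RNA of 3 retina samples was read on 1-colour Agilent arrays. The deposited scanner files hold intensity values written by Agilent Feature Extraction 12.0.3.1, per the file headers, background-subtracted and not normalized between arrays. The authors' deposited value table holds the same intensity times 1 constant per array (2.54 for Otx2 KI, 2.61 for Crx KO and 2.49 for wild-type), with column medians of 125.7, 135.8 and 129.8. The basis of these constants: not given in the sources used here. The arrays shared 1 slide and 1 scan, so position on the slide and genotype cannot be told apart.

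Control spots and outlier spots (126 to 136 per array) were left out, log2 signals were reduced by the array's 75th percentile, and a gene was read from its brightest probe. Accessions were matched without versions to RefSeq genes of GRCm38.p6, which named 28331 of 55681 probes (50.9%). A gene well above background on 1 array got a lower limit of its fold, with the dim array set to its lowest well-measured signal, or to the gene's own signal where that was larger. With 1 array per genotype there was no test and no p-value; the number of arrays limits the precision. Python 3.11.15, numpy 2.4.6, pandas 2.3.3, R 4.3.3 and limma 3.58.1 (normexp with an offset of 50, and quantile normalization) were used, and the steps were tested on simulated data. That simulation shifted 200 bright genes by 2 on the log2 scale, recovered 200 and gave 44 false calls among 16414 genes. No dim gene was shifted and no shift was near 2-fold, so it does not cover such calls. The files hold no mean spot signal, so normexp used the median spot signal and the median local background.

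The 10 genes and the 11 lists beside them were chosen with earlier results of these data known. The genes named were all 10, Crx and Otx2, up to 4 genes past 2-fold per retinoid list, up to 3 per marker list, and the 3 nearest genes of each called gene; the text prints some of these, and some genes of the lists are not reported here. Alternatives were normexp, quantile normalization, centring on the median of bright probes, the authors' table, the mean of a gene's probes, no filter on dim probes, outlier spots kept, and 1.5-fold in place of 2-fold.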

Additional observations from a re-analysis of the deposited data

How the results depend on the processing

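The background correction and the fold limit were the choices that changed the counts of the 10 genes. With normexp 2 of the 10 genes were past 2-fold below wild-type in Otx2 KI (Rdh12 and Abca4) and 3 in Crx KO (Rgr beside these), and 0 lay that far above Crx KO in Otx2 KI. Taken at 1.5-fold, 8 genes in Otx2 KI were below wild-type and 1 was below Crx KO. Quantile normalization, centring on bright probes, the authors' table, the mean of all probes, no filter on dim probes and outlier spots kept left each count of the 10 genes within 1.5 times. No difference called at 2-fold changed sign under any alternative. Over the 8 settings Rdh12 ranged from -1.09 to -1.05 in Otx2 KI and from -1.17 to -1.08 in Crx KO, Abca4 from -1.77 to -1.70 and from -1.98 to -1.88, and Lrat from -1.09 to -0.53 and from -2.48 to -0.82. Over all genes, Crx KO had 550 below and 313 above wild-type by 2-fold, against 328 and 182 with normexp and 1075 and 789 with no filter; Otx2 KI had 400 and 213, against 282 and 130 and 906 and 498; and Otx2 KI set against Crx KO had 102 and 107, against 50 and 35 and 581 and 394. Counts of genes past 2-fold below wild-type also moved in small lists, on both mutant arrays: with the mean of all probes the binding, uptake and transport list had 2 in place of 1, and with no filter the other dehydrogenases had 2 in place of 1 and the ester list 1 in place of 0. For photoreceptor markers in Crx KO it was 10 to 12 across the settings. Rdh8 and Lrat are limited by their low signal over background. Alternatives for genes outside the 10 were added after seeing the data. No paired analysis was possible because each genotype has 1 array, and no array could be left out for the same reason.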
